A study of Ovis aries with 12 samples.

Results

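The keratin, claudin and epithelial adhesion genes of sheep embryos were followed across 2 breeds and 2 ages. They were all genes whose deposited symbol is KRT or CLDN followed by a number, with CDH1, EPCAM, OCLN, DSP, PKP3, TP63, GRHL1, GRHL2, ESRP1 and ESRP2, which makes 63 of the 26247 genes in the table: 35 keratins, 18 claudins and 10 adhesion genes and regulators. Bulk RNA-seq was done on sheep (Ovis aries) embryos that had been digested enzymatically to single cells. The 4 groups, with 3 libraries each, were Hulunbuir Short-tail embryos of 25 days, Ujumqin embryos of 25 days, Hulunbuir Short-tail embryos of 16 days and Ujumqin embryos of 16 days. Hulunbuir was the experimental breed and Ujumqin the control breed, and no other treatment or allele is named. The labels do not say how many animals stand behind a library or whether extraembryonic membranes were kept, so each p-value reflects how far these particular libraries scatter, and that scatter may be technical.

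Epithelial cells are held together by 3 kinds of contact. Tight junctions seal the space between cells, with claudins and occludin as their membrane proteins. Adherens junctions join cells through E-cadherin, and desmosomes anchor the keratin filaments of neighbouring cells to each other through desmoplakin and plakophilins. In ruminant embryos of these stages the main epithelia are the trophectoderm, the endoderm of gut and yolk sac, and the surface ectoderm that later becomes epidermis. Grainyhead-like factors, p63 and the ESRP splicing factors are regulators of the epithelial state. Keratins pair a type I with a type II protein: KRT8 with KRT18 in simple epithelia, and KRT5 with KRT14 or KRT15 in stratified ones.

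Total counts per library were 32625184 to 39643588 in Hulunbuir day 25, 30464606 to 33171681 in Ujumqin day 25, 43131962 to 51241161 in Hulunbuir day 16 and 49944437 to 55455815 in Ujumqin day 16. Levels are given as the authors' FPKM (fragments per kilobase of gene, scaled to library size). Log2 changes come from the counts, fitted with edgeR after TMM scaling, with their standard error, and a gene is called when its Benjamini-Hochberg adjusted p over 14595 tested genes is under 0.05. A gene was tested when it reached 1 FPKM in at least 3 of the 12 libraries, which 26 of the 63 genes did: 6 keratins, 10 claudins and all 10 adhesion genes and regulators. A gene that passed only through a group where it is high had to differ, so counts over these 26 describe them and nothing more.

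The other 37 genes were close to silent. No count at all fell on 8 of them, namely KRT1, KRT2, KRT12, KRT32, KRT71, KRT74, KRT82 and CLDN18, where 3 counts, the limit that a count of 0 allows, would be 0.0541 to 0.0985 CPM (counts scaled to library size). Another 28 stayed below 1 FPKM in every library. They include KRT80 with at most 0.627 FPKM, KRT17 with 0.611 FPKM, the hair follicle keratin gene KRT27 with 0.688 FPKM and CLDN2 with 0.877 FPKM. CLDN19 was the 1 gene above that level, at 1.11 FPKM in its highest library. The 35 keratin genes lie in the 2 keratin clusters of the Oar_v3.1 build. On chromosome 11, 40477407 to 41338864, stand 17 of them, of which 4 were tested, and on chromosome 3, 133375727 to 134042991, stand 18, of which 2 were tested. The claudin genes are spread over 8 chromosomes, and all 5 on chromosome 24 were tested.

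KRT8 (chromosome 3, 133375727 to 133383019), the type II keratin of simple epithelia, had the highest mean FPKM of these genes in every group. It averaged 265 ± 13.6 FPKM in Hulunbuir day 25, 339 ± 102 in Ujumqin day 25, 2907 ± 1479 in Hulunbuir day 16 and 2139 ± 815 in Ujumqin day 16 (SD, n = 3 each). KRT8 made up 92.5 to 93.1% of the summed FPKM of the 35 keratins in Hulunbuir day 25 libraries, 87.8 to 92.0% in Ujumqin day 25, 95.8 to 97.3% in Hulunbuir day 16 and 91.1 to 95.9% in Ujumqin day 16. Its partner KRT18 (chromosome 3, 133329883 to 133333811) has no symbol in the table and is no member, and was named through its NCBI gene number. The shares above leave KRT18 out, and that of KRT8 would be smaller with it. KRT18 averaged 78.4 ± 3.75 FPKM in Hulunbuir day 25, 81.4 ± 27.8 in Ujumqin day 25, 635 ± 434 in Hulunbuir day 16 and 382 ± 189 in Ujumqin day 16 (SD, n = 3 each). The ratio of KRT8 to KRT18 FPKM lay between 3.26 and 7.22 over the 12 libraries, so both partners were high and low in the same groups. KRT5, the basal cell keratin gene named the same way, averaged 2.37 ± 0.25 FPKM in Hulunbuir day 25 and 5.48 ± 3.20 in Ujumqin day 25, 8.5 ± 6.55 in Hulunbuir day 16 and 4.03 ± 1.55 in Ujumqin day 16 (SD, n = 3 each).

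After KRT8, the order of mean levels differed between the groups. In Hulunbuir day 25 it ran CLDN6 at 28.4 ± 0.49, EPCAM at 26.1 ± 2.03, CLDN7 at 22.4 ± 5.11, DSP at 15.5 ± 0.48 and CLDN4 at 13.6 ± 0.73 FPKM (SD, n = 3). In Ujumqin day 25 it ran CLDN7 at 34.6 ± 18.1, EPCAM at 32.4 ± 19.2, CLDN6 at 27.3 ± 15.2, KRT7 at 26.8 ± 16.2 and CLDN4 at 19.5 ± 8.94 FPKM (SD, n = 3). In Hulunbuir day 16 the sequence was CLDN6 at 178 ± 137, EPCAM at 164 ± 91.5, DSP at 90.6 ± 11.2 and CLDN4 at 71.1 ± 41.4 FPKM (SD, n = 3). In Ujumqin day 16 CLDN6 at 265 ± 154 and CLDN4 at 254 ± 168 were ahead of EPCAM at 111 ± 24.9, CLDN7 at 110 ± 33.2 and CDH1 at 92.0 ± 44.2 FPKM (SD, n = 3). The gap between neighbours in these orders was smaller than the larger of their SDs in each group but Hulunbuir day 25, where only that of EPCAM and CLDN7 was. Near the low end stood TP63, KRT16, KRT10, KRT36 and GRHL1, each with a mean of at most 2.31 FPKM at day 25.

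**Figure D1:**
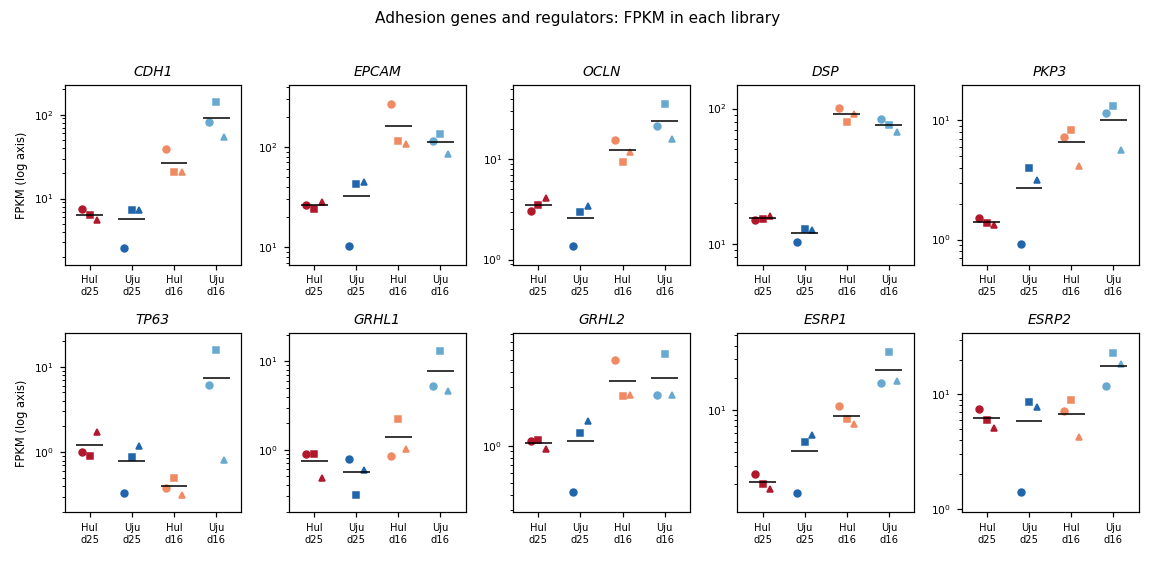
FPKM (log axis) of the 10 adhesion genes and regulators in each of 12 libraries, grouped as Hulunbuir day 25, Ujumqin day 25, Hulunbuir day 16 and Ujumqin day 16; circles, squares and triangles are replicates 1, 2 and 3 and lines are group means. The day 25 libraries of CDH1, OCLN and DSP lie below all day 16 libraries of their breed, and the circle of Ujumqin day 25 stands low in CDH1, EPCAM, ESRP1 and ESRP2.

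Day 25 was set against day 16 within each breed, which asks how these genes change over the period. Most of the 26 tested genes were lower at day 25 in both breeds: those called fell by 1.43 to 3.66 on the log2 scale in Hulunbuir and by 1.33 to 3.86 in Ujumqin. A few low genes, chief among them CLDN15, went the other way. In Hulunbuir, 1 of 26 was called higher and 15 lower, beside 18.9% and 21.6% of all tested genes. In Ujumqin, 4 were called higher and 19 lower, beside 30.7% and 32.9% of all tested genes. The median log2 change of the 26 was -1.85 in Hulunbuir and -1.92 in Ujumqin, beside -0.04 and -0.07 over all tested genes. By FPKM of the 3 and 3 libraries, 3 genes were higher and 14 lower without overlap in Hulunbuir, beside 33.4% and 21.6% of all tested genes. The same counts in Ujumqin were 3 and 18, beside 30.9% and 36.9%. In bulk RNA, fewer epithelial cells and less of these transcripts per cell cannot be told apart.

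Among the adhesion molecules, the cadherin gene CDH1 (chromosome 14, 35389858 to 35459641), which encodes E-cadherin, had 7.47, 6.33 and 5.59 FPKM in Hulunbuir day 25, 2.60, 7.39 and 7.25 in Ujumqin day 25, 39.0, 20.6 and 20.8 in Hulunbuir day 16 and 81.6, 140 and 54.0 in Ujumqin day 16. Every day 25 library lay below every day 16 library, and within day 16 every Hulunbuir library lay below every Ujumqin one. CDH1 fell at day 25 in Hulunbuir (log2 change -2.22 ± 0.47, adjusted p = 0.0037) and in Ujumqin (-3.86 ± 0.50, adjusted p = 6.71e-05; edgeR). EPCAM (chromosome 3, 76934724 to 76942496), an epithelial surface adhesion molecule, had 26.4, 23.9 and 27.9 FPKM in Hulunbuir day 25, 10.3, 42.6 and 44.4 in Ujumqin day 25, 269, 114 and 107 in Hulunbuir day 16 and 114, 134 and 84.9 in Ujumqin day 16. It fell in Hulunbuir (log2 change -2.81 ± 0.54, adjusted p = 0.00202) and in Ujumqin (-1.62 ± 0.51, adjusted p = 0.0164; edgeR), with no overlap between ages. OCLN (chromosome 16, 10211260 to 10251194), occludin, had 3.06, 3.46 and 4.07 FPKM in Hulunbuir day 25, 1.36, 2.99 and 3.41 in Ujumqin day 25, 15.5, 9.33 and 11.8 in Hulunbuir day 16 and 21.2, 35.5 and 15.8 in Ujumqin day 16. Its fall was 1.94 on the log2 scale in Hulunbuir and 3.08 in Ujumqin, again without overlap between ages.

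EPCAM and CDH1 did not keep 1 proportion. The ratio of EPCAM to CDH1 FPKM was 3.53, 3.78 and 5.0 in Hulunbuir day 25, 3.95, 5.77 and 6.12 in Ujumqin day 25, 6.90, 5.54 and 5.16 in Hulunbuir day 16, and 1.40, 0.957 and 1.57 in Ujumqin day 16. Ujumqin day 16 stood below the other 9 libraries. CDH2, which encodes the cadherin of neural and mesenchymal cells, gave a ratio of CDH1 to CDH2 of 0.293, 0.259 and 0.219 in Hulunbuir day 25, 0.125, 0.643 and 0.618 in Ujumqin day 25, 0.760, 0.737 and 0.351 in Hulunbuir day 16, and 5.46, 25.3 and 4.23 in Ujumqin day 16. CDH1 exceeded CDH2 in the 3 Ujumqin day 16 libraries and in no other library. No test was made of these ratios.

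The desmosomal gene DSP (chromosome 20, 46781827 to 46812748), which encodes desmoplakin, links the junction to keratin filaments. Its FPKM were 15.2, 15.3 and 16.0 in Hulunbuir day 25, 10.3, 12.9 and 12.8 in Ujumqin day 25, 102, 79.4 and 90.8 in Hulunbuir day 16, and 84.3, 75.6 and 67.04 in Ujumqin day 16. DSP fell at day 25 in Hulunbuir (log2 change -2.71 ± 0.17, adjusted p = 4.21e-06) and in Ujumqin (-2.52 ± 0.17, adjusted p = 1.76e-06; edgeR), the smallest adjusted p of these genes in each breed. The plakophilin gene PKP3 (chromosome 21, 49653790 to 49658605) had 1.51, 1.37 and 1.33 FPKM in Hulunbuir day 25, 0.92, 4.01 and 3.15 in Ujumqin day 25, 7.24, 8.28 and 4.17 in Hulunbuir day 16, and 11.5, 13.3 and 5.66 in Ujumqin day 16. It fell by 2.43 in Hulunbuir and 1.77 in Ujumqin on the log2 scale, both called. PKP3 overlaps 2 unnamed genes of the opposite strand that averaged 0.624 and 0.590 FPKM, and whether counting used strand is not given in the sources used here.

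The regulators moved less evenly. ESRP1 (chromosome 9, 82229465 to 82289690), a splicing factor of epithelial cells, had 2.49, 2.03 and 1.80 FPKM in Hulunbuir day 25, 1.65, 4.94 and 5.83 in Ujumqin day 25, 10.8, 8.28 and 7.42 in Hulunbuir day 16, and 18.0, 34.6 and 18.8 in Ujumqin day 16. ESRP1 fell by 2.24 in Hulunbuir and 2.37 in Ujumqin on the log2 scale. Its paralog ESRP2 (chromosome 14, 34951267 to 34957109) had a log2 change of -0.34 ± 0.56 in Hulunbuir (adjusted p = 0.65) and was called lower in Ujumqin (-1.43 ± 0.57, adjusted p = 0.045; edgeR), in 11 of 20 alternatives. That difference between breeds was itself not called (interaction adjusted p = 0.353). ESRP2 overlaps NFATC3 on the opposite strand, a gene with a mean of 9.93 FPKM, and without known strand use their reads cannot be told apart. GRHL2 (chromosome 9, 75349296 to 75520982), a grainyhead-like factor of epithelial junction genes, averaged 1.05 ± 0.09 FPKM in Hulunbuir day 25, 1.10 ± 0.60 in Ujumqin day 25, 3.36 ± 1.40 in Hulunbuir day 16 and 3.57 ± 1.70 in Ujumqin day 16 (SD, n = 3 each), and fell in both breeds (log2 change -1.83 and -1.56; called in 18 and 19 of 20 alternatives). The age changes of GRHL1 and TP63 were called different between breeds and are described with the interaction.

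**Figure D2:**
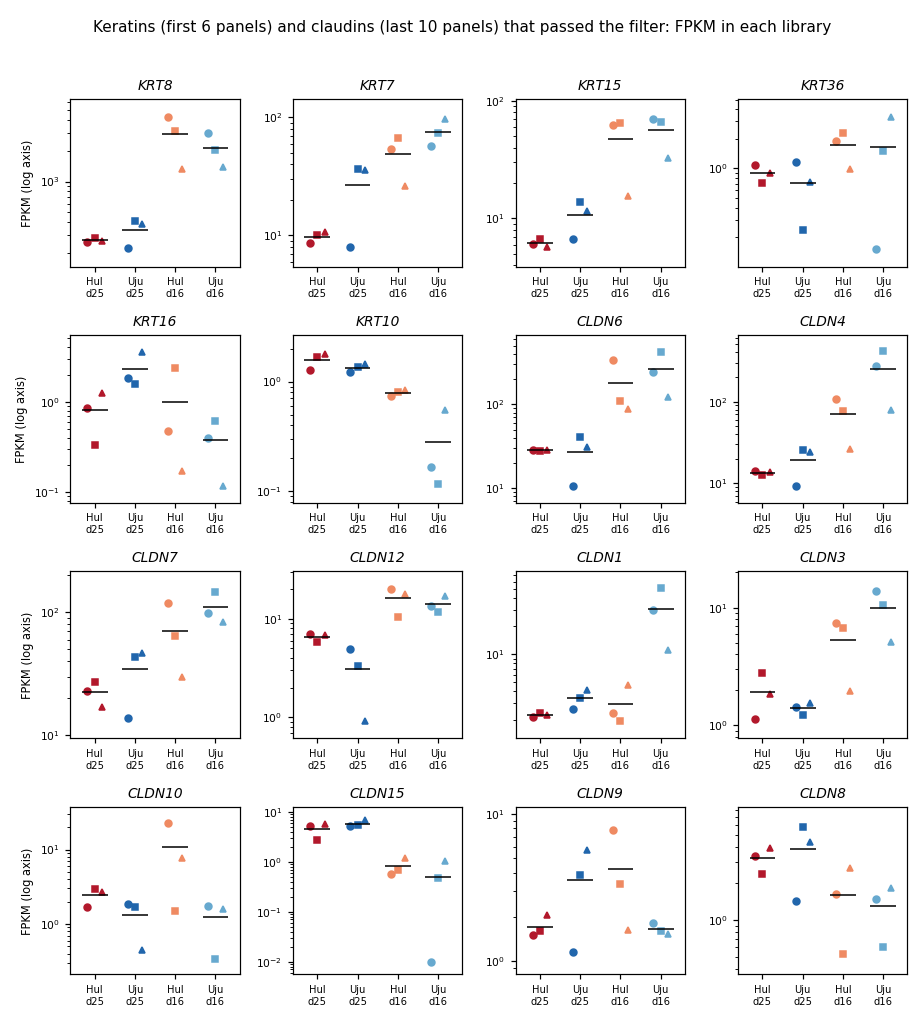
FPKM (log axis) of the 6 keratin and 10 claudin genes that were tested, in each of 12 libraries, in the groups Hulunbuir day 25, Ujumqin day 25, Hulunbuir day 16 and Ujumqin day 16; circles, squares and triangles are replicates 1, 2 and 3 and lines are group means. KRT8, KRT7, KRT15, CLDN6 and CLDN4 are lower at day 25 in both breeds, CLDN15 is higher at day 25, and the CLDN15 library with a count of 0 is drawn at the bottom of its axis.

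Of the keratins, the simple epithelial KRT8 and KRT7 and the basal KRT15 fell with age in both breeds, whereas KRT10 and KRT16 were called higher in Ujumqin. KRT8 had 253, 280 and 261 FPKM in Hulunbuir day 25, 222, 410 and 385 in Ujumqin day 25, 4247, 3153 and 1320 in Hulunbuir day 16, and 3002, 2030 and 1384 in Ujumqin day 16. The ages did not overlap in either breed, and KRT8 fell by 3.66 in Hulunbuir (adjusted p = 0.00025) and 2.52 in Ujumqin (adjusted p = 0.000702; edgeR) on the log2 scale. KRT7 (chromosome 3, 133962047 to 133975095), the other simple epithelial type II keratin here, had 8.55, 10.1 and 10.6 FPKM in Hulunbuir day 25, 8.01, 36.4 and 35.9 in Ujumqin day 25, 53.4, 66.3 and 26.1 in Hulunbuir day 16, and 57.7, 73.1 and 96.6 in Ujumqin day 16. It fell by 2.53 in Hulunbuir and 1.33 in Ujumqin on the log2 scale, the second with an adjusted p of 0.0444 that lay between 0.0185 and 0.100 over 20 alternatives. KRT15 (chromosome 11, 41206815 to 41224898), a type I keratin of basal cells, averaged 6.20 ± 0.51 FPKM in Hulunbuir day 25, 10.7 ± 3.63 in Ujumqin day 25, 47.2 ± 27.4 in Hulunbuir day 16 and 56.1 ± 20.5 in Ujumqin day 16 (SD, n = 3 each). KRT15 fell by 3.16 and 2.26 on the log2 scale in Hulunbuir and Ujumqin.

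KRT10 and KRT16 stayed near the limit of the filter. KRT10 (chromosome 11, 40583329 to 40587120), a keratin of cells that leave the basal layer, had 1.28, 1.67 and 1.78 FPKM in Hulunbuir day 25, 1.21, 1.35 and 1.45 in Ujumqin day 25, 0.733, 0.806 and 0.835 in Hulunbuir day 16, and 0.165, 0.117 and 0.552 in Ujumqin day 16. The ages did not overlap in either breed. Its log2 change was 0.83 ± 0.48 in Hulunbuir (adjusted p = 0.189) and 2.40 ± 0.51 in Ujumqin (adjusted p = 0.00175; edgeR), where it was called. KRT16 (chromosome 11, 41315077 to 41317232), a keratin of stressed or fast-growing epidermis, was called higher at day 25 in Ujumqin (log2 change 2.72 ± 0.96, adjusted p = 0.0281; edgeR) with 8 to 143 counts per library, a call that held in 16 of 20 alternatives. KRT16 lies 6940 bases from KRT17 on the same strand, and reads shared between such similar keratins could be split by the counting. KRT36 was called in no comparison.

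CLDN6 (chromosome 24, 2411230 to 2411880), a claudin of embryonic epithelia, had 28.6, 27.8 and 28.7 FPKM in Hulunbuir day 25, 10.5, 40.3 and 31.1 in Ujumqin day 25, 336, 110 and 88.6 in Hulunbuir day 16, and 243, 429 and 123 in Ujumqin day 16. Hulunbuir day 25 libraries lay close together, while the other 3 groups spread widely. CLDN6 fell by 2.82 in Hulunbuir and 3.15 in Ujumqin on the log2 scale. CLDN4 (chromosome 24, 33401505 to 33402010) had 14.2, 12.8 and 13.9 FPKM in Hulunbuir day 25, 9.19, 25.3 and 24.0 in Ujumqin day 25, 109, 77.8 and 26.7 in Hulunbuir day 16, and 272, 412 and 78.3 in Ujumqin day 16. This claudin, which in cell culture lowers the passage of sodium ions, fell by 2.59 in Hulunbuir and 3.58 in Ujumqin on the log2 scale. CLDN7 (chromosome 11, 26601004 to 26602523), found along the lateral membrane as well as in junctions, averaged 22.4 ± 5.11 FPKM in Hulunbuir day 25, 34.6 ± 18.1 in Ujumqin day 25, 71.0 ± 44.9 in Hulunbuir day 16 and 110 ± 33.2 in Ujumqin day 16 (SD, n = 3 each). CLDN7, CLDN12 and CLDN3 were called lower at day 25 in both breeds, with log2 changes of -1.86, -1.43 and -1.68 in Hulunbuir and -1.52, -2.06 and -2.66 in Ujumqin. These calls held in 17, 15 and 9 of 20 alternatives in Hulunbuir and in 18, 20 and 20 in Ujumqin.

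CLDN15 (chromosome 24, 35371924 to 35376566), the claudin of sodium-permeable junctions in the intestine, went the other way. It had 5.10, 2.75 and 5.63 FPKM in Hulunbuir day 25, 5.28, 5.34 and 6.88 in Ujumqin day 25, 0.56, 0.67 and 1.21 in Hulunbuir day 16, and a count of 0 in 1 library beside 0.48 and 1.02 FPKM in the other Ujumqin day 16 libraries. Both breeds were higher at day 25 without overlap. Its log2 change was 2.32 ± 0.84 in Hulunbuir (adjusted p = 0.0465) and 3.68 ± 0.89 in Ujumqin (adjusted p = 0.00391; edgeR). The Hulunbuir call held in 8 of 20 alternatives (adjusted p 0.00261 to 0.12) and the Ujumqin call in all 20. CLDN8 was called higher at day 25 in Ujumqin (log2 change 1.72 ± 0.63, adjusted p = 0.0323; edgeR), in 12 of 20 alternatives, with groups that overlapped. CLDN9 and CLDN10 were not called in either breed. CLDN9 lies 1257 bases from CLDN6 on the opposite strand, and its log2 change was -1.48 ± 0.64 in Hulunbuir and 1.27 ± 0.64 in Ujumqin, with an interaction of -2.75 ± 0.91 (adjusted p = 0.0544; edgeR).

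**Figure D3:**
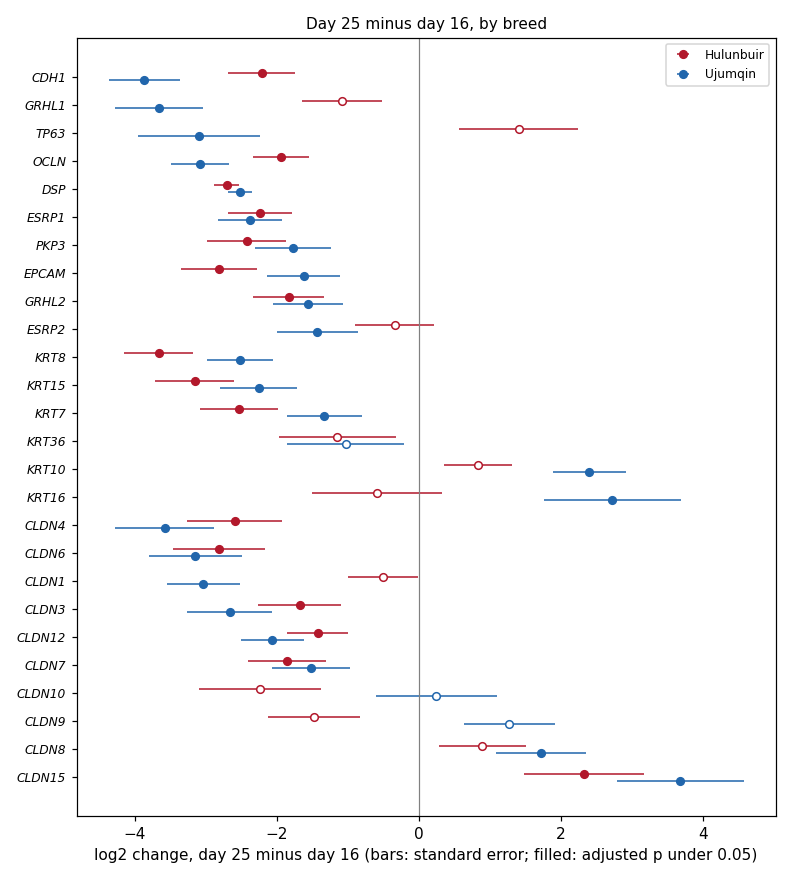
Log2 change, day 25 minus day 16, of the 26 tested genes in Hulunbuir (red) and Ujumqin (blue), from the 12-library edgeR fit; bars are standard errors and filled points have an adjusted p under 0.05. All but a few points lie left of 0 in both breeds, CLDN15 lies to the right in both (2.32 and 3.68), and TP63 lies at 1.40 in Hulunbuir and -3.10 in Ujumqin.

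The claudins did not fall in step, so their proportions shifted. Summed over 18 claudins, FPKM came to 85.8 to 90.9 in Hulunbuir day 25, 52.3 to 135 in Ujumqin day 25, 183 to 627 in Hulunbuir day 16 and 326 to 1064 in Ujumqin day 16. CLDN6 made up 30.6 to 33.5% of that sum in Hulunbuir day 25, 20.1 to 29.9% in Ujumqin day 25, 39.3 to 53.6% in Hulunbuir day 16 and 35.9 to 40.3% in Ujumqin day 16. Its share was lower in every day 25 library than in every day 16 library. CLDN15 made up 3.02 to 6.56% in Hulunbuir day 25 and 3.97 to 10.1% in Ujumqin day 25, against 0.0892 to 0.659% in Hulunbuir day 16 and at most 0.312% in Ujumqin day 16. CLDN4 took 14.0 to 16.2% in Hulunbuir day 25, 17.6 to 18.8% in Ujumqin day 25, 14.6 to 27.9% in Hulunbuir day 16 and 24.0 to 40.1% in Ujumqin day 16. CLDN1 took 2.41 to 2.59% in Hulunbuir day 25, 2.55 to 4.97% in Ujumqin day 25, 0.373 to 2.53% in Hulunbuir day 16 and 3.41 to 4.76% in Ujumqin day 16. These shares are a description, with no test. CLDN11, which has no symbol in the table and is left out of the sum, averaged 22.2 ± 1.99 FPKM in Hulunbuir day 25, 17.7 ± 5.51 in Ujumqin day 25, 17.0 ± 9.29 in Hulunbuir day 16 and 9.22 ± 3.51 in Ujumqin day 16 (SD, n = 3 each). In Ujumqin day 25 replicate 1 it had 24.05 FPKM, above CLDN7 at 13.83, the highest of the 18 there. All shares given here would be smaller with CLDN11 in the sum.

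**Figure D4:**
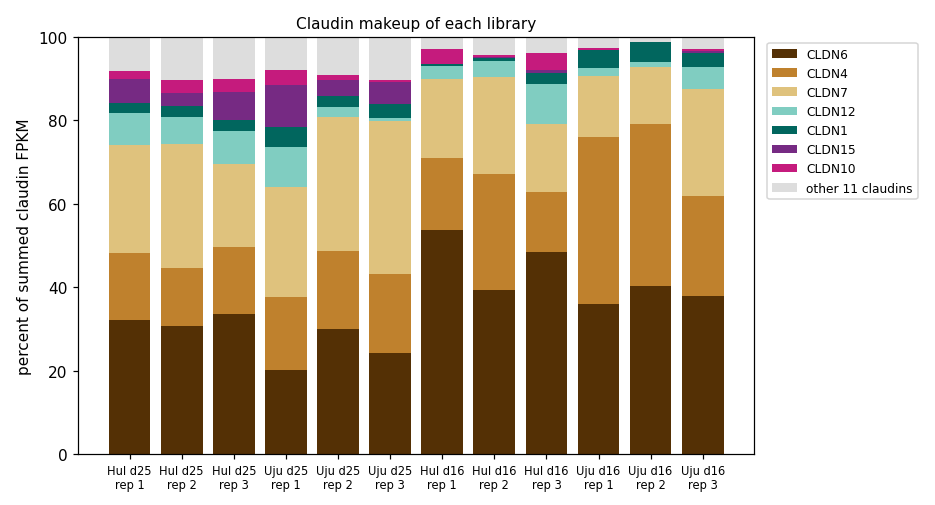
Percent of the summed FPKM of 18 claudins that each claudin makes up, 1 bar per library, in the order Hulunbuir day 25, Ujumqin day 25, Hulunbuir day 16 and Ujumqin day 16. CLDN6, CLDN4 and CLDN7 hold most of the sum of these 18 in every library, and the CLDN15 segment is visible at day 25 (3.02 to 10.1%) and under 1% at day 16. CLDN11 is not in the sum.

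Hulunbuir was then set against Ujumqin at day 25, the study's comparison of experimental and control breed at the later age. Of the 6 tested keratins, KRT16, KRT7, KRT15 and KRT8 were called lower in Hulunbuir, and so were ESRP1 and CLDN1. KRT10 and KRT36 were not called, with log2 changes of -0.10 and -0.01. In all, that is 0 of 26 called higher and 6 lower, beside 23.3% and 22.7% of all tested genes, a share near the background. The median log2 change was -0.51 for the 26 and 0.03 for all tested genes. KRT7 changed by -1.81 ± 0.49 (adjusted p = 0.0162), KRT15 by -1.13 ± 0.25 (adjusted p = 0.00661), KRT16 by -1.82 ± 0.51 (adjusted p = 0.0189), KRT8 by -0.70 ± 0.22 (adjusted p = 0.0324), ESRP1 by -1.32 ± 0.42 (adjusted p = 0.0306) and CLDN1 by -0.94 ± 0.31 (adjusted p = 0.0369; edgeR) on the log2 scale. KRT5, no member, changed likewise by -1.56 ± 0.48 (adjusted p = 0.026; edgeR). By FPKM, DSP and CLDN12 were higher and KRT16 and CLDN1 lower without overlap between breeds, beside 49.1% and 13.2% of all tested genes, while KRT7, KRT8, KRT15 and ESRP1 overlapped. On the TMM scale DSP and CLDN12 overlapped, and KRT15 and CLDN15 were lower without overlap along with KRT16 and CLDN1. That made 0 higher and 4 lower, beside 4042 and 4333 of 14595 tested genes. FPKM and TMM differ in scale here: the median gene stood 0.36 higher in Hulunbuir by log2 FPKM, and scaling by library totals called DSP higher and KRT7, KRT15 and KRT16 lower, a split of 1 and 3 beside 41.4% and 10.2% of all tested genes. Blood markers, 5 in the table, summed to 15150 to 17990 FPKM in Hulunbuir day 25 and 1778 to 2291 in Ujumqin day 25, and all 4 that were tested were called higher in Hulunbuir. Neural markers, 4 in the table, summed to 340.6 to 349.9 FPKM in Hulunbuir day 25 and 184.5 to 208.8 in Ujumqin day 25, with 2 of 4 called higher. Of 7 tested epidermis and surface ectoderm markers, which include KRT5, KRT15 and TP63, 0 were called higher and 5 lower. Mesenchyme markers had 1 higher and 5 lower of 8, trophoblast markers 1 and 3 of 10, and endoderm and yolk sac markers 5 and 1 of 10. The part of these markers in the breed changes was not tested.

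The number of calls at day 25 changed with any 1 library left out, and it rose only without Ujumqin replicate 1. Ujumqin replicate 1 had the lowest FPKM of its group for 20 of the 26 genes (76.9%), against 27.5% of all tested genes. For 14 of the 26 (53.8%) it stood below 0.5 times the mean of replicates 2 and 3, against 4.35% of all tested genes. This ratio was 0.172 for ESRP2, 0.222 for KRT7, 0.235 for EPCAM, 0.295 for CLDN6, 0.355 for CDH1, 0.558 for KRT8 and 0.800 for DSP, with a median of 0.399 for the 26 and 1.09 for all tested genes. The 7 tested markers of epidermis and surface ectoderm, of which TP63 and KRT15 are also among the 26, had a median ratio of 0.369, and 4 of them stood below 0.5. Mesenchyme markers had a median of 1.63, endoderm and yolk sac markers 1.55, neural markers 1.41 and trophoblast markers 1.14. Their part in the result was not tested. CLDN12, KRT36, GRHL1 and CLDN10 were instead higher in replicate 1, with ratios of 2.30, 2.43, 1.77 and 1.75.

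Without that library, 17 of the 26 were called, 1 higher and 16 lower in Hulunbuir, beside 28.6% and 27.0% of all tested genes. The library was singled out because it stood low for these same genes. More genes called lower in Hulunbuir had to follow from that choice, so the calls and p-values of this fit are a description only. KRT7 then changed by -2.25 ± 0.11 (adjusted p = 7.05e-07), EPCAM by -1.11 ± 0.09 (adjusted p = 1.28e-05), CLDN4 by -1.22 ± 0.13 (adjusted p = 9.12e-05) and CDH1 by -0.55 ± 0.13 (adjusted p = 0.00567; edgeR). CLDN12 was the gene called higher, at 1.25 ± 0.45 (adjusted p = 0.0399; edgeR). Leaving out another library gave fewer calls: 1 without Hulunbuir replicate 1 or 2 or Ujumqin replicate 3, 2 without Ujumqin replicate 2 and 3 without Hulunbuir replicate 3. KRT15 was called in each of these 6 fits and in 13 of 14 alternatives, with an adjusted p of 8.32e-06 to 0.149. At day 25 the median coefficient of variation of the 26 was 15.6% in Hulunbuir and 52.7% in Ujumqin, beside 8.19% and 15.4% over all tested genes.

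**Figure D5:**
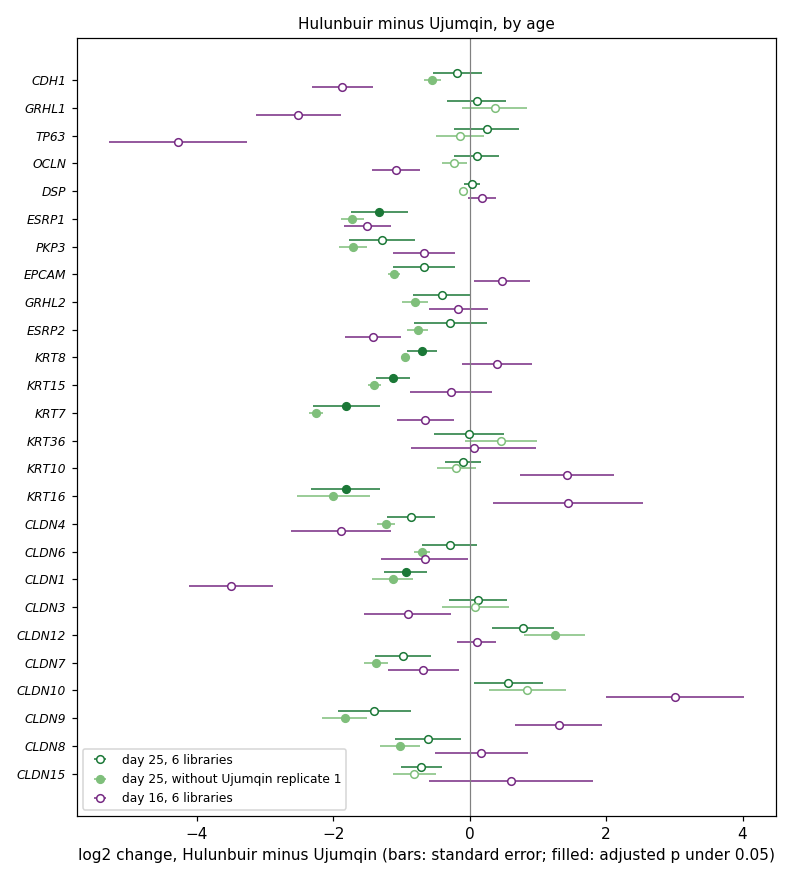
Log2 change, Hulunbuir minus Ujumqin, of the 26 tested genes at day 25 with all 6 libraries (dark green), at day 25 without Ujumqin replicate 1 (light green) and at day 16 (purple); bars are standard errors and filled points have an adjusted p under 0.05. The 6 dark filled points are KRT7, KRT8, KRT15, KRT16, ESRP1 and CLDN1, 17 light points are filled, and at day 16 no point is filled although TP63 (-4.28) and CLDN1 (-3.50) lie farthest from 0.

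At day 16 no gene of the set was called between Hulunbuir and Ujumqin. TP63, GRHL1, CDH1, ESRP1, ESRP2, OCLN and CLDN1 were lower in all 3 Hulunbuir libraries than in all 3 Ujumqin libraries, and KRT10 was higher. The 10 adhesion genes and regulators thus held 6 that were lower without overlap, while EPCAM, DSP, PKP3 and GRHL2 overlapped between breeds. Over the 26, that is 1 gene higher and 7 lower without overlap, beside 13.2% and 11.1% of all tested genes. With edgeR on the 6 libraries, 0 of 26 genes passed the threshold, beside 0.0137% of all tested genes higher and 0.00685% lower, and 9 of the 26 had an unadjusted p under 0.05, as did 20.2% of all tested genes. DESeq2 called 8 of the 25 it gave an adjusted p, of which CLDN10 was higher and CDH1, CLDN1, CLDN4, ESRP1, ESRP2, GRHL1 and TP63 were lower, beside 5.06% of all genes higher and 6.70% lower in that test. The median log2 change was -0.46 for the 26 and 0.01 for all tested genes. Libraries of a group lay far apart at this age: the biological coefficient of variation was 18.1% at day 25 and 43.8% at day 16.

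TP63 (chromosome 1, 195682402 to 195845074), the p53 family regulator of basal epithelial cells, had 0.387, 0.498 and 0.313 FPKM in Hulunbuir day 16 and 6.07, 15.5 and 0.805 in Ujumqin day 16. Ujumqin replicate 3 lay close to the Hulunbuir libraries and far below the other Ujumqin ones, and the log2 change was -4.28 ± 1.011 (adjusted p = 0.124; edgeR). CLDN1 (chromosome 1, 195280159 to 195295348), the claudin of the epidermal barrier, had 2.34, 1.92 and 4.64 FPKM in Hulunbuir day 16 and 30.1, 50.7 and 11.1 in Ujumqin day 16, with a log2 change of -3.50 ± 0.62 (adjusted p = 0.1; edgeR). CLDN1 and TP63 lie 387 kb apart, and genes between them were not looked for. GRHL1 (chromosome 3, 19044119 to 19089445), a regulator of desmosomal cadherin genes in mouse epidermis, had 0.858, 2.25 and 1.03 FPKM in Hulunbuir day 16 and 5.30, 13.2 and 4.61 in Ujumqin day 16. Its log2 change was -2.51 ± 0.63 (adjusted p = 0.13; edgeR). CDH1 changed by -1.87 ± 0.45 (adjusted p = 0.124) and ESRP1 by -1.50 ± 0.34 (adjusted p = 0.122; edgeR). The abundant KRT8, EPCAM, DSP and CLDN6 overlapped between breeds, with log2 changes of 0.40, 0.48, 0.18 and -0.66.

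Deviations of same-numbered libraries correlated between the 2 breeds at day 16, at 0.156 to 0.381. The labels name no shared batch, and whether these libraries pair was not tested. With the replicate number as a block, 2 of the 26 were called lower, GRHL1 (log2 change -2.52, adjusted p = 0.0368) and CLDN4 (-1.83, adjusted p = 0.043; edgeR), beside 0.891% of all tested genes higher and 1.12% lower. Without Ujumqin day 16 replicate 3, CLDN1 and TP63 were called, both lower with an adjusted p of 0.0238, beside 0.226% of all tested genes higher and 1.14% lower. With 1 spread for all 12 libraries, 6 of the 26 were called, CLDN10 higher and CDH1, CLDN1, ESRP1, GRHL1 and TP63 lower, beside 8.46% and 8.39% of all tested genes. Markers of other cell types also differed in summed level at day 16. The 10 trophoblast markers in the table, none of which was without counts, summed to 460 to 528 FPKM in Hulunbuir day 16 and 910 to 1526 in Ujumqin day 16. None of the 10 was called, and 5 had an unadjusted p under 0.05, beside 20.2% of all tested genes (edgeR). Of them, PPARG had 0.635, 2.99 and 0.456 FPKM in Hulunbuir day 16 and 20.5, 75.5 and 9.80 in Ujumqin day 16, and GATA3 had 10.3, 7.77 and 8.94 in Hulunbuir day 16 and 24.2, 75.0 and 9.003 in Ujumqin day 16. PPARG and S100G did not overlap between breeds and the other 8 did, with TEAD4 at 15.5, 21.9 and 14.5 FPKM in Hulunbuir day 16 and 14.7, 13.2 and 13.1 in Ujumqin day 16. Of all tested genes, 13.2% were higher and 11.1% lower in Hulunbuir day 16 without overlap. CDX2, a defining trophoblast factor, had 36.4, 12.8 and 2.88 FPKM in Hulunbuir day 16 and 13.1, 19.9 and 3.90 in Ujumqin day 16 and overlapped between breeds. The 8 epidermis and surface ectoderm markers summed to 132 to 266 FPKM in Hulunbuir day 16 and 198 to 282 in Ujumqin day 16, with overlap. Endoderm and yolk sac markers, 10 in the table, summed to 1306 to 4381 FPKM in Hulunbuir day 16 and 6304 to 10180 in Ujumqin day 16. Most of that sum came from AFP, APOA1 and TTR. None of the 10 was called, and their median log2 change was -0.25. AFP, TTR and HNF4A were lower in Hulunbuir without overlap, and SOX17 and GATA4 were higher without overlap, beside the same shares of all tested genes. Blood markers summed to 59.05 to 129.6 FPKM in Hulunbuir day 16 and 789.7 to 3573 in Ujumqin day 16. None of the 4 tested was called, and their median log2 change was -4.01. All 4 had an unadjusted p under 0.05, beside the same 20.2% of all tested genes (edgeR). Neural markers summed to 104.9 to 330.8 FPKM in Hulunbuir day 16 and 35.96 to 103.1 in Ujumqin day 16, with 0 of 4 called. The part of these markers in the result was not tested.

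Whether the age change itself differed between breeds was asked with the breed by age interaction. It was called for TP63, GRHL1 and CLDN1, 3 of 26 in the positive direction and 0 in the negative, beside 8.89% and 10.3% of all tested genes. The positive share was near the background. This fit used 1 spread for both ages, although the biological coefficient of variation was 43.8% at day 16 and 18.1% at day 25. Its p-values may therefore understate the scatter of the day 16 libraries. The breed test on the day 16 libraries alone called none of these 3 genes. With voom and group weights, 0 of 26 had a called interaction. TP63 had 0.995, 0.911 and 1.73 FPKM in Hulunbuir day 25 and 0.335, 0.874 and 1.17 in Ujumqin day 25, with the day 16 values given above. Its age change was 1.40 ± 0.83 in Hulunbuir (adjusted p = 0.2) and -3.10 ± 0.86 in Ujumqin (adjusted p = 0.00865), an interaction of 4.49 ± 1.19 (adjusted p = 0.0246; edgeR). In Ujumqin the ages overlapped for TP63, since day 16 replicate 3, at 0.805 FPKM, lay within the day 25 values. The fall there rests on day 16 replicates 1 and 2, at 6.07 and 15.5 FPKM. GRHL1 had 0.888, 0.902 and 0.479 FPKM in Hulunbuir day 25 and 0.794, 0.307 and 0.588 in Ujumqin day 25. Its age change was -1.09 ± 0.57 in Hulunbuir (adjusted p = 0.147) and -3.65 ± 0.62 in Ujumqin (adjusted p = 0.000381), an interaction of 2.57 ± 0.81 (adjusted p = 0.0459; edgeR). CLDN1 had 2.14, 2.34 and 2.22 FPKM in Hulunbuir day 25 and 2.60, 3.44 and 4.18 in Ujumqin day 25. Its age change was -0.51 ± 0.49 in Hulunbuir (adjusted p = 0.429) and -3.04 ± 0.51 in Ujumqin (adjusted p = 0.000389), an interaction of 2.53 ± 0.69 (adjusted p = 0.0275; edgeR). All 3 genes had their highest mean in Ujumqin day 16, at 7.46 ± 7.45 FPKM for TP63, 7.71 ± 4.79 for GRHL1 and 30.6 ± 19.8 for CLDN1 (SD, n = 3). The 3 calls were lost together without Hulunbuir day 25 replicate 3, Ujumqin day 25 replicate 2, Hulunbuir day 16 replicate 1 or Ujumqin day 16 replicate 2.

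Other genes of the same junctions were taken from lists chosen with earlier results of these data known. Their counts stand beside 18.9% called higher and 21.6% lower over all tested genes in Hulunbuir, and 30.7% and 32.9% in Ujumqin. Of 23 tested tight junction and polarity genes, 0 were called higher and 13 lower at day 25 in Hulunbuir, and 1 higher and 17 lower in Ujumqin. F11R, which encodes the junctional adhesion molecule JAM-A, changed by -2.96 ± 0.28 in Hulunbuir and -3.33 ± 0.29 in Ujumqin, and the polarity gene CRB3 by -2.31 ± 0.76 and -5.20 ± 0.89 on the log2 scale. CRB3 was near the floor in Ujumqin day 25, with a count of 0 in replicate 1 and 0.771 and 0.258 FPKM in replicates 2 and 3. Desmosome and hemidesmosome genes had 1 called higher and 12 lower of 14 in each breed. The desmosomal cadherin gene DSG2 changed by -3.76 ± 0.27 in Hulunbuir and -4.04 ± 0.27 in Ujumqin, and LAMB3, a laminin chain gene of the basement membrane, rose by 0.70 ± 0.19 and 2.65 ± 0.20. Among 10 adherens junction genes, 7 were lower in Hulunbuir and 8 in Ujumqin, with 0 higher in either. Among 13 epithelial regulators and surface genes, 6 were lower in Hulunbuir and 9 in Ujumqin, with 0 higher in either, TFAP2C (-4.16 ± 0.88) and ELF3 (-4.11 ± 0.84) with the largest changes in Ujumqin. Mesenchymal genes were mixed, with 5 higher and 5 lower of 14 in Hulunbuir and 6 higher and 4 lower in Ujumqin. The mesenchymal regulator TWIST2 rose by 2.82 ± 0.41 and 3.80 ± 0.43, and fibronectin FN1 fell by 3.81 and 2.78 on the log2 scale.

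Between breeds at day 25, 5 of 23 tight junction genes were called higher in Hulunbuir and 2 lower, beside 23.3% and 22.7% of all tested genes, with LLGL2 at 0.68 ± 0.17, LSR at 0.62 ± 0.20 and TJP3 at -1.02 ± 0.32 on the log2 scale. Adherens junction genes were called higher for 4 of 10 and lower for 0, and the nectin gene NECTIN1 had 5.79, 6.86 and 5.55 FPKM in Hulunbuir day 25 against 0.712, 1.20 and 1.53 in Ujumqin day 25 (log2 change 2.05 ± 0.29, adjusted p = 0.000796; edgeR). Desmosome and hemidesmosome genes were lower for 5 of 14, LAMB3 among them (-1.25 ± 0.15), and epithelial regulators for 4 of 13, among them GRHL3 (-2.13 ± 0.60), a grainyhead-like factor of skin barrier formation. With 10 to 23 genes a list, these counts describe the lists only. LAMB3 and NECTIN1 also had a called interaction, of -1.95 ± 0.27 and 1.48 ± 0.44. At day 16 edgeR called 0 genes of these lists, and 7 of 23 tight junction genes and 7 of 13 regulators had an unadjusted p under 0.05, beside 20.2% of all tested genes.

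Replicate 3 stood low for these genes in both breeds at day 16. It had the lowest FPKM of its group for 15 of 26 genes (57.7%) in Hulunbuir and 16 of 26 (61.5%) in Ujumqin, against 20.2% and 29.1% of all tested genes. Day 25 Hulunbuir libraries showed no such order, with 9, 9 and 8 of the 26 lowest in replicates 1, 2 and 3. At day 25 epidermis and surface ectoderm markers summed to 43.6 to 47.8 FPKM in Hulunbuir and 39.2 to 91.8 in Ujumqin, and trophoblast markers to 245 to 267 in Hulunbuir and 154 to 194 in Ujumqin, where S100G, which codes for a calcium-binding protein, held 70.5 to 144 FPKM. CDX2 was at or below 0.79 FPKM in every day 25 library. The part of these markers in the age changes was not tested.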

How the data were processed

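Embryo RNA of 12 libraries was isolated with TRIzol and made into Illumina libraries, per the labels' protocols. Reads were handled with cutadapt 1.9 and FastQC on the Oar_v3.1 genome, per the submitters' processing notes. Not named are the aligner, the counter and the strand setting (not given in the sources used here). The table deposited by the authors holds whole-number counts per gene, not scaled between libraries, and FPKM, per the file headers. Each deposited FPKM equals the count times a gene factor and a library factor to a median of 0.0803% over 8029 genes, and is written 0.0001 where the count is 0. All sample columns matched a library by name.

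From the counts, edgeR 4.0.16 in R 4.3.3 (TMM scaling, quasi-likelihood test, two-sided) tested genes with at least 1 FPKM in at least 3 of 12 libraries, with Benjamini-Hochberg adjustment over 14595 genes. Breed contrasts used the 6 libraries of an age, and age contrasts and the interaction used all 12 with 4 group means. The script was tested on simulated data. Standard errors were taken as log2 change over the root of the F statistic. Alternatives were DESeq2 1.42.0, limma 3.58.1 (voom with group weights), other scalings, filters and library sets, the replicate block and leave-one-out fits. Replicate numbers come from the sample titles. Deviations of same-numbered libraries from their group means correlated at 0.156, 0.307 and 0.381 between breeds at day 16. Each Hulunbuir library correlated best with its own number there, and also at day 25. The labels name no shared batch, and whether the libraries pair was not tested. At the other contrasts the correlations lay between -0.062 and 0.091. Members and lists were chosen with earlier results of these data known. Named genes were the 10 adhesion genes and regulators, the 6 keratins and 6 claudins of highest mean FPKM, the 6 largest called changes per contrast and direction, and per list the 2 largest called changes per direction, not all of which are printed. Other genes named, and the family sums and ratios, were chosen after their values were seen. Floors cover counting error only, while the SDs and standard errors include the spread between libraries.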

Additional observations from a re-analysis of the deposited data

Results flagged for a closer look

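The change with age differed between the breeds for 3 of the 26 tested genes, by the edgeR test of the breed by age interaction. All 3 were in the positive direction, beside 8.89% of all tested genes called positive and 10.3% negative. The positive share was near the background, so the count is no result about these genes as a set. The log2 interaction was 4.494 for TP63, 2.526 for CLDN1 and 2.569 for GRHL1. Over 19 alternatives the adjusted p lay between 0.000521 and 0.192 for TP63, between 0.00296 and 0.133 for CLDN1 and between 0.0088 and 0.105 for GRHL1, and the call held in 14, 11 and 10 of them.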

How the results depend on the processing

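No named log2 change with a call changed sign under an alternative, and both age contrasts kept their counts within 1.5 times: 11 to 17 genes in Hulunbuir, beside 16, and 18 to 23 in Ujumqin, beside 23. At day 16 the breed count of 0 became 8 with DESeq2, 2 with the replicate block, 6 with all 12 libraries and 0 to 2 leaving out 1 library. At day 25 the count of 6 became 10 with DESeq2, 1 with all 12 libraries and 1 to 17 leaving out 1 library, and the replicate block gave 4. The interaction count of 3 became 6 with DESeq2, 0 with voom and 0 to 5 leaving out 1 library: 1 without Hulunbuir day 25 replicate 1 or 2, 5 without replicate 3 of either breed at day 16. The replicate block gave 15 for age in Hulunbuir, 23 for age in Ujumqin and 3 for the interaction. Whether same-numbered libraries pair was not tested. Over all genes, edgeR called 3 at day 16, DESeq2 1608, voom 487, the block 293 and the 12-library fit 2459, and at day 25 6716 with 6 libraries and 2440 with 12. Library totals in place of TMM moved the split over all genes to 6049 higher and 1483 lower at day 25, and to 3454 and 2144 for age in Hulunbuir. The cause of these differences was not tested. Genes with under 200 counts in their highest library, CLDN15, KRT16, KRT10 and CLDN8, are limited by depth.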
